A study of Mus musculus with 15 samples.

Results

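Oocytes from Tle6 knockout (KO) females were compared with oocytes from Tle6 heterozygotes (het), all on the C57BL/6J strain background and all at the germinal vesicle (GV) stage, the fully grown stage before meiosis resumes. Libraries were chosen by their genotype label, which gave 9 of the 15 libraries of the study, 4 from heterozygotes and 5 from knockouts. Technical libraries A and B of het replicates 1 and 2 and of KO replicate 4 were added together, so that 2 het and 4 KO replicates were compared, 6 of the 12 replicates of the study. Every library was made from polyadenylated RNA of 15 oocytes. Both groups carry at least 1 mutant Tle6 allele, and no wild-type library was used. The labels name neither the kind of allele, nor the age of the females, nor whether replicates came from different females, so p-values reflect only how these samples vary. The other 6 libraries came from a Padi6 line on the FVB/N background, with 3 heterozygote (Padi6 +/-) and 3 knockout (Padi6 -/-) replicates, and served only to ask whether a change was shared.

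TLE6 belongs to the Groucho family of corepressors by sequence, but in oocytes it is known as a cytoplasmic protein of the subcortical maternal complex. That complex gathers NLRP5, OOEP, TLE6 and KHDC3 beneath the oocyte surface, and it is required in the egg for the embryo to pass its first divisions. The same proteins, with PADI6, are needed for the cytoplasmic lattices, fibres on which fully grown oocytes keep maternal proteins. GV oocytes transcribe very little, so a level of RNA at this stage reflects what was made and kept during growth.

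Gene counts per library ran from 30100177 to 74947533 over the study, and levels below are CPM, each gene's share of a library's gene counts, on a common TMM scale. Cell type marker sums, and single markers' lowest and highest levels over the 9 libraries, are CPM without TMM scaling. All 15 oocyte markers examined, among them the egg coat genes Zp1, Zp2 and Zp3 and the growth factor genes Gdf9 and Bmp15, were above 1 CPM in each of the 9 libraries. The 2 libraries of het replicate 2 stood apart from each other. Among 8144 genes at 10 CPM or more, 318 differed by more than 4-fold between libraries A and B of het replicate 2, against 0 of 7560 for het replicate 1 and 0 of 7690 for KO replicate 4. Libraries of different KO replicates had only 3 to 26 such genes, and het library 1A differed from KO replicate 1 at 83. Het libraries 1A and 1B were farther from het replicate 2, with 129 and 117 such genes against 2A and 141 and 111 against 2B. KO replicates also paired off, with 37 and 55 genes over 2-fold apart between KO 1 and the libraries of KO 4 and 67 between KO 2 and KO 3, against 431 to 617 for the other pairings of KO replicates. The same split ran across genotypes. Het library 1A was over 2-fold from KO 1 and KO 4 at 382 to 466 genes and from KO 2 and KO 3 at 1198 to 1333, whereas 2A was at 1156 to 1409 and at 639 to 893. Library 2B was at 1282 to 2449 from every KO library. What set these libraries apart was not tested. Every result is therefore given with all libraries, and its value without library 2B (or without 2A) is printed wherever that changes the call or the size.

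In all, 329 of 20276 tested genes (1.62%) differed between the genotypes at an adjusted p under 0.05 in edgeR's quasi-likelihood test with Benjamini-Hochberg adjustment. Of these, 119 (0.587% of the genes tested) were higher and 210 (1.04%) lower in the knockout. Large steps were common: 75 of the 119 higher genes and 105 of the 210 lower genes changed by more than 4-fold, and 31 and 40 by more than 16-fold. In 51 of the higher and 75 of the lower genes, the group with less RNA was below 1 CPM. Without library 2B, 120 of 19831 genes passed (0.605%), 50 higher (0.252%) and 70 lower (0.353%), and 107 of them were among the 329. Without library 2A, 316 of 20007 passed (1.58%), 248 of them shared. In data simulated from these samples the test found 8 of 68 genes changed by 2-fold, 44 of 66 changed by 4-fold and 57 of 66 changed by 16-fold, and called 8 of 20076 unchanged genes. Each gene was drawn independently with the spread the test itself fits, so the splits between libraries described above were absent. These counts thus do not show how often genes are wrongly called in the real data.

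Protein-coding genes made up 262 of the 329, with 29 long intergenic RNAs, 15 antisense RNAs and 9 processed pseudogenes, all 9 of them lower. The replicates of the 2 genotypes did not overlap for 119 of the 119 higher and 209 of the 210 lower genes. Over all genes tested, KO replicates lay above both het replicates for 14.9% and below both for 14%. When the 9 libraries were set side by side instead, 118 of the higher and 171 of the lower genes did not overlap. The genes had been called on these same libraries, and the share over all genes tested was not computed for them. These counts therefore only describe the called genes.

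**Figure D1:**
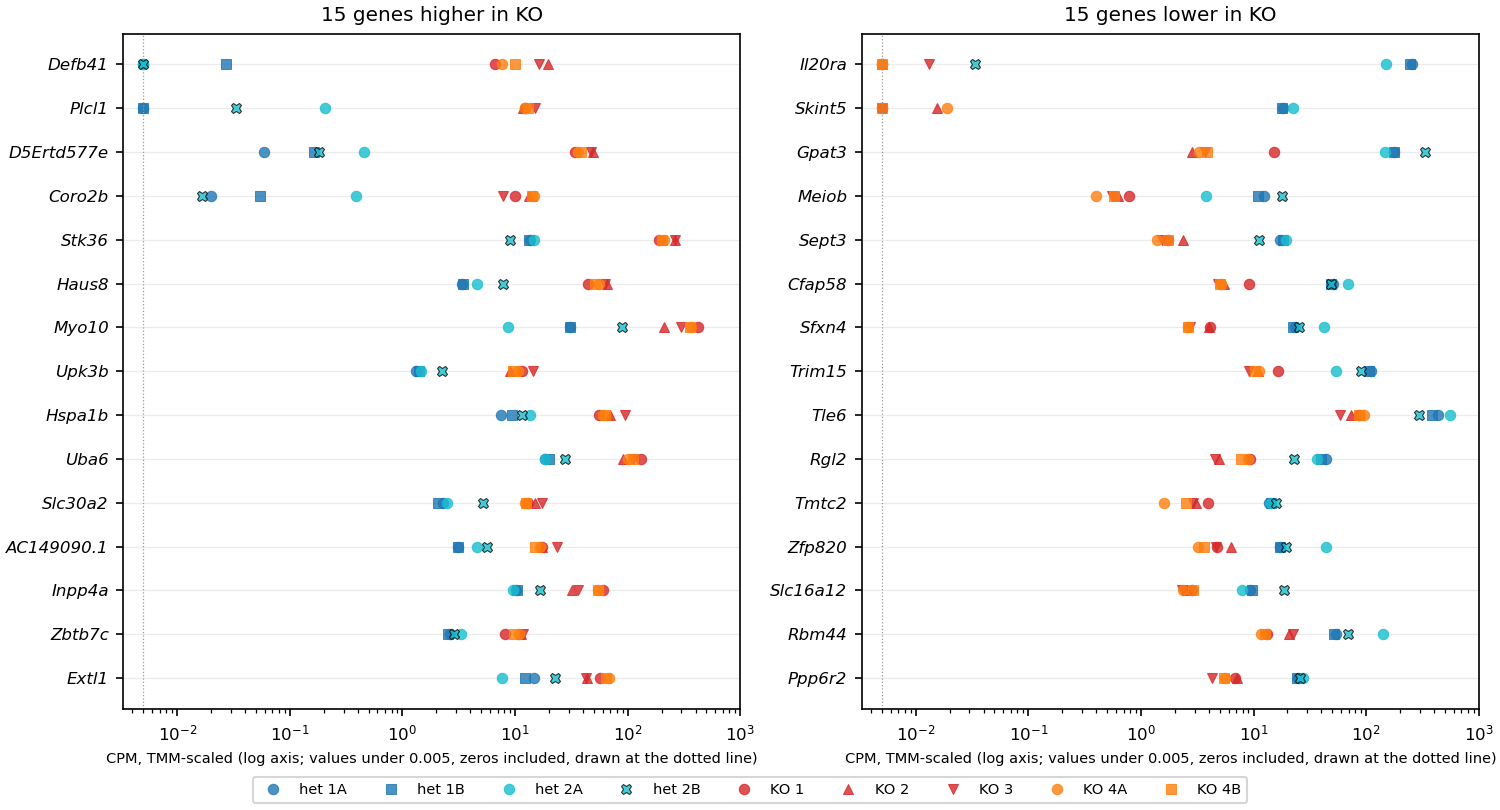
CPM on a log axis for the 15 higher (left) and 15 lower (right) genes with the largest fold change that passed both with all libraries and without library 2B; each point is 1 of the 9 libraries, coloured by genotype and replicate. KO libraries lie together on one side of the het libraries, except that het library 2B (cross) falls to the KO level for Il20ra, at 0.0333 CPM, and to 0 for Skint5.

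Tle6 itself, on chromosome 10, was measured first as a check of the labels. Its level was 412 CPM in het replicate 1, 555 and 292 CPM in het libraries 2A and 2B, and 85.5, 73.1, 59 and 91.6 CPM in KO replicates 1 to 4. All KO replicates were below all het libraries, and Tle6 fell by 2.40 ± 0.21 (SE) on the log2 scale, with an adjusted p of 0.00167 in edgeR's quasi-likelihood test. RNA counted to the gene was thus reduced but still present in the knockouts, and counts per gene do not tell which exons it came from.

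None of the other 8 measured genes of the complex and the lattices passed the test. Their estimates ran from -0.55 for Zbed3 to 0.68 for Khdc3, and the median of all 9 genes was -0.156 beside a median of 0.062 for all genes tested. Nlrp5, which encodes the scaffold of the complex, had 891 ± 120 CPM (SD, n = 2) in heterozygotes and 676 ± 75.4 CPM (SD, n = 4) in knockouts. All its KO libraries lay below all its het libraries, and its adjusted p was 0.293 in the edgeR test. Ooep, which encodes a KH-domain protein of the complex, had 6478 ± 1060 CPM and 6141 ± 211 CPM, and Padi6, the deiminase-family gene of the lattices, had 2339 ± 433 CPM and 2104 ± 319 CPM. Zbed3, a zinc finger gene whose product joins the complex, was at 7652 ± 214 CPM against 5209 ± 994 CPM and its adjusted p was 0.209 in the edgeR test. Khdc3 varied within the heterozygotes, at 233 CPM in replicate 1 and 58.4 and 147 CPM in 2A and 2B, while the 4 knockouts held 230 to 339 CPM. Nlrp14, Nlrp4f and Nlrp2, NLRP genes of the oocyte, had estimates of -0.13, -0.38 and -0.05, with standard errors of 0.28, 0.20 and 0.23.

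**Figure D2:**
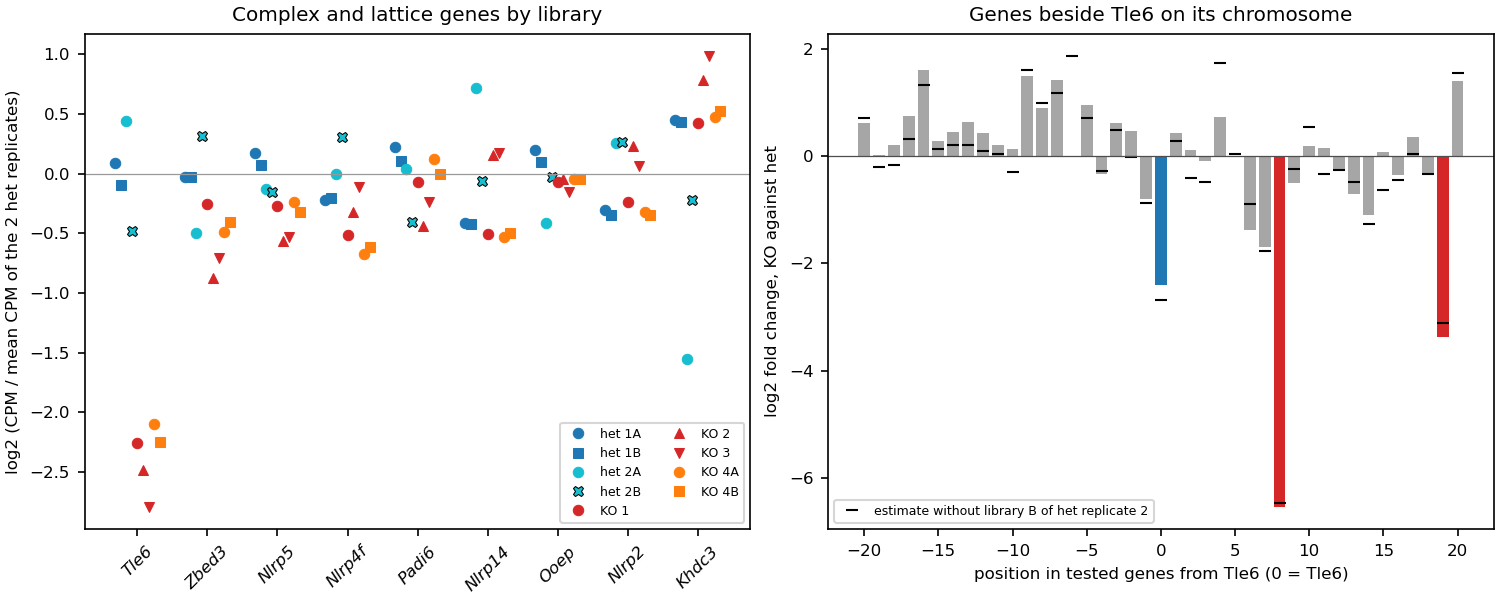
Left: log2 of CPM over the mean of the 2 het replicates for the 9 genes of the complex and lattices, 1 point per library. All KO libraries lie far below the het libraries for Tle6 (59 to 95.1 CPM against 292 to 555). Those of Nlrp5 lie below by less (604 to 756 CPM against 800 to 1004). Right: log2 fold change of the 20 tested genes on each side of Tle6 in gene order, red where called, with black dashes for the estimate without library 2B; 2 of the 40 neighbours were called, both lower.

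Around Tle6 the 40 nearest tested genes held 2 called genes, both lower in the knockout, and both lie after Tle6 in the gene order. Gm32687, the eighth tested gene away, had 0.503 CPM in het replicate 1 and 0.477 and 0.534 CPM in libraries 2A and 2B, and was seen in KO replicate 1 alone, at 0.0219 CPM. That was 97 counts in heterozygotes and 1 in knockouts, a ratio of 121.8 per total count with a 95% exact binomial counting interval of 21.35 to 4860. Next, 1190007I07Rik, 19 tested genes away, had 40.4, 10.3 and 31.8 CPM in het 1, 2A and 2B and 1.53 to 4.87 CPM in the knockouts. It fell by 3.38 ± 0.45 (SE) in log2 with an edgeR adjusted p of 0.0104, and by 3.11 with an adjusted p of 0.0657 without library 2B. On the other side of Tle6 no gene passed, though 17 of 20 estimates were positive, with a median of 0.456, or 14 with a median of 0.209 without library 2B. The nearest members of its own family, Tle2 and the short corepressor gene Aes, had estimates of -0.81 and 0.47 and did not pass, and none of the 5 tested genes of the Groucho list did.

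Some of the genes that rose did so from a clear level in heterozygotes and others from almost none. Stk36, a kinase gene of the Hedgehog pathway and of motile cilia, was at 13.5 CPM in het 1, 14.6 and 8.96 CPM in het 2A and 2B, and 189, 264, 262 and 209 CPM in the knockouts. It rose by 4.21 ± 0.26 (SE) in log2 with an edgeR adjusted p of 0.000237. Plcl1, which encodes a phospholipase C-like protein that binds inositol phosphates without catalytic activity, was at 0 CPM in het 1, 0.204 and 0.0333 CPM in het 2A and 2B, and 12.1, 11.7, 14.9 and 12.6 CPM in the knockouts. D5Ertd577e, on chromosome 5, was at 0.103 CPM in het 1, 0.454 and 0.183 CPM in het 2A and 2B, and 34.1 to 49.6 CPM in knockouts. The fitted rise of Plcl1, 7.81, was 9.65 without library 2A and 12.82 without het replicate 2, but 6.91 without het replicate 1, and that of D5Ertd577e was 7.67, and 8.58 without het replicate 2. For each of these 3 genes all 9 libraries separated by genotype.

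Among the lower genes, Gpat3 and Il20ra fell from a high abundance. Gpat3, which encodes a glycerol-3-phosphate acyltransferase of triglyceride synthesis, was at 177 CPM in het 1, 148 and 334 CPM in het 2A and 2B, and 15, 2.82, 3.72 and 3.5 CPM in the knockouts. It fell by 5.11 ± 0.64 (SE) in log2 with an edgeR adjusted p of 0.00728, and fell by 6.03 without KO replicate 1, whose level was the highest of the 4. Il20ra, a subunit of the receptors for the interleukin-20 group of cytokines, was at 249 CPM in het 1 and 149 CPM in het 2A, but at 0.0333 CPM in het 2B. In the 4 knockouts together 1 count of Il20ra was found, against 28377 in heterozygotes, a ratio of 35630 with a 95% exact counting interval of 6395 to 1407000. With library 2B in place of the sum of both, het replicate 2 thus resembled the knockouts for Il20ra, and without library 2A the gene fell below the filter on low counts and was not tested.

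Promoters are shown for Stk36, Plcl1, Gpat3 and Il20ra, 2 higher and 2 lower genes with large changes, from 250 bases before to 50 bases after the transcript start, 5′ to 3′ on the gene's strand. Sequences are RefSeq's on GRCm38.p6, which had an entry for 48 of the 61 named genes, and all 4 lie on the plus strand. Capitals mark E-boxes, CANNTG on either strand, the motif bound by basic helix-loop-helix factors such as FIGLA.
Stk36, chr1:74601205-74601504: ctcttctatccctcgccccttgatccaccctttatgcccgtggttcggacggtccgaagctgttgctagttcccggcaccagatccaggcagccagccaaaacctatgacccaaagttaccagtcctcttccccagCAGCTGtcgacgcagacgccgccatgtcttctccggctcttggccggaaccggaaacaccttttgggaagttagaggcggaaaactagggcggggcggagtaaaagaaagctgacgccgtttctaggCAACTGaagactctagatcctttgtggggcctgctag
Plcl1, chr1:55405696-55405995: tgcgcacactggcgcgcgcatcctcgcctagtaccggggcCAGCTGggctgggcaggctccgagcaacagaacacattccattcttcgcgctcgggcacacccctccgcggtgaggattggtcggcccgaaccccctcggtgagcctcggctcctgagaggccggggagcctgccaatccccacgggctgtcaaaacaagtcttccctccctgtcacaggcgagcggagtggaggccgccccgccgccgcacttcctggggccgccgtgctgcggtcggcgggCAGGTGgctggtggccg
Gpat3, chr5:100845979-100846278: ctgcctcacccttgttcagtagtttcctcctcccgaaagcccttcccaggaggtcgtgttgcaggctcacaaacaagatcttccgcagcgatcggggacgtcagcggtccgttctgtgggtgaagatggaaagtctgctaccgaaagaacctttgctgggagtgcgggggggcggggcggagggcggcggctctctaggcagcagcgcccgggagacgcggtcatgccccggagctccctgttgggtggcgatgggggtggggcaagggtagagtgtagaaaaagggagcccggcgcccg
Il20ra, chr10:19712337-19712636: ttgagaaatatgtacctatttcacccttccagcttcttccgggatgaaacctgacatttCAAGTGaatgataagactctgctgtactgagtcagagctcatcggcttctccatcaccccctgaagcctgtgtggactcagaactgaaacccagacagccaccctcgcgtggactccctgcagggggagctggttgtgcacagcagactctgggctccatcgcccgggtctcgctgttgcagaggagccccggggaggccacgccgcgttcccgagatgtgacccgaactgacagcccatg
Stk36 and Plcl1, both higher in the knockout, held 2 E-boxes each, Il20ra 1 and Gpat3 none. At least 1 E-box was present in 72.3% of all 32851 promoters of this table. Neither TAATTA or TAATTG, read on either strand and present in 12.4% of promoters, nor TATAAA, present in 13.6%, was found in the 4 windows.

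Further genes that rose had known roles in the cytoskeleton. Myo10, the unconventional myosin of filopodia, was at 31 CPM in het 1, 8.74 and 88.3 CPM in het 2A and 2B, and 421, 211, 296 and 362 CPM in the knockouts. It rose by 2.92 ± 0.36 (SE) in log2 with an edgeR adjusted p of 0.00728, and by 3.97 without library 2B. Coro2b, an actin-binding coronin, was at 0.386 CPM or less in every het library and at 7.79 to 14.6 CPM in the knockouts. Its estimate was 6.73, or 5.93 without library 2B and 8.62 without library 2A, and 6.05 and 8.25 without het replicate 1 or 2. These 2 were the called members among 52 tested nucleators, myosins and coronins (3.85%, beside 1.62% of all genes tested), whose median was -0.028. Haus8, a subunit of augmin, the complex that starts new microtubules on the sides of old ones, was at 3.43 CPM in het 1, 4.61 and 7.8 CPM in het 2A and 2B, and 44.8, 65.4, 62.4 and 53.7 CPM in the knockouts. The other 7 augmin genes, Haus1 to Haus7, had estimates from -0.76 for Haus5 to 0.40 for Haus4 and did not pass.

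Upk3b, a uroplakin gene that also marks mesothelium, rose by 2.79 ± 0.32 (SE) in log2 with an edgeR adjusted p of 0.00454, from 1.36 CPM in het 1 and 1.45 and 2.23 CPM in het 2A and 2B to 9 to 14.5 CPM in knockouts. The other 8 tested markers of surface epithelium and mesothelium did not pass, Msln stayed at or below 0.0535 CPM, and the summed level of all 14 was 74.4 to 99.8 CPM in het libraries and 73.8 to 93.6 CPM in KO libraries. The part of such cells in the Upk3b result was not tested. Hspa1b, an inducible heat shock protein 70 gene, rose by 2.77 ± 0.30 (SE) with an edgeR adjusted p of 0.00324, from 8.26 CPM in het 1 and 13.4 and 11.6 CPM in het 2A and 2B to 55.3, 69.8, 94.5 and 61 CPM in the knockouts. Its near-identical neighbour Hspa1a, with which reads can be exchanged, was at 0.74 and 1.67 CPM on average and did not pass, nor did the other 20 tested chaperone genes.

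Other higher genes were named by the size of their change. Uba6, an activating enzyme for ubiquitin and FAT10, rose from 21.4 ± 3.46 CPM (SD, n = 2) to 110 ± 17 CPM (SD, n = 4). Extl1, a glycosyltransferase gene of heparan sulfate synthesis, rose from 15 to 52.3 CPM on average, and its neighbour Slc30a2, a zinc transporter gene, from 3.13 to 14.4 CPM. Inpp4a, a phosphoinositide phosphatase gene, rose from 11.9 to 45.8 CPM. These last 3 missed the threshold without library 2A, at edgeR adjusted p of 0.0552 for Extl1, 0.051 for Slc30a2 and 0.0545 for Inpp4a. Zbtb7c, a zinc finger transcription factor gene on chromosome 18, rose from 2.83 to 10.4 CPM, and AC149090.1, on an unplaced scaffold, from 4.16 to 18.6 CPM. Defb41, a beta-defensin gene, had 1 count in heterozygotes and 3523 in knockouts, a ratio of 2806 with a 95% exact counting interval of 503.2 to 110800.

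Germ cell genes stood among those that fell. Meiob, which encodes a single-strand DNA-binding protein of meiotic recombination, was at 11.7 CPM in het 1, 3.75 and 17.9 CPM in het 2A and 2B, and 0.787, 0.623, 0.554 and 0.468 CPM in knockouts. It fell by 4.29 ± 0.29 (SE) in log2 with an edgeR adjusted p of 0.000461. Rad51d, a recombinase paralogue gene, moved the other way, from 7.08, 17.7 and 4.59 CPM to 45.6 to 52.9 CPM, and missed the threshold without library 2B at an edgeR adjusted p of 0.062. Of 29 tested genes of recombination and meiotic prophase 3 were called, 1 higher and 2 lower, beside 1.62% of all genes tested, and the list's median log2 fold change was -0.155. Smc1b, the meiotic cohesin subunit, fell from 36.7 to 15.4 CPM on average and was the 1 called gene of 16 cohesin genes, with an adjusted p of 0.0266 that rose to 0.0709 without library 2B. Rbm44, a germ cell RNA-binding protein gene, fell from 52.9, 141 and 68.9 CPM in het 1, 2A and 2B to 11.9 to 22.6 CPM.

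Other lower genes came from separate pathways. Cfap58, a gene of the sperm flagellum and cilia, fell from 53.6 ± 5 CPM (SD, n = 2) to 6.13 ± 2.04 CPM (SD, n = 4), yet none of the 46 tested genes of cilium structure and transport passed. Sept3, a septin gene, fell from 16.2 to 1.79 CPM, and Sfxn4, a mitochondrial sideroflexin gene, from 27.8 to 3.35 CPM. Trim15, a gene of the tripartite motif family, fell from 91.3 to 11.8 CPM and Rgl2, an activator gene for Ral GTPases, from 35.4 to 6.81 CPM, both on chromosome 17. Ppp6r2, a regulatory subunit gene of protein phosphatase 6, was even across the het libraries at 24.5, 27.7 and 25.8 CPM and fell to 4.3 to 7.13 CPM in knockouts. Tmtc2, an O-mannosyltransferase gene, was as even, at 13.9, 14.2 and 15.7 CPM against 1.93 to 3.93 CPM. Slc16a12, a creatine transporter gene, fell from 11.8 to 2.57 CPM.

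Skint5 and Skint6, neighbours of the Skint family on chromosome 4, shared the pattern of Il20ra. Skint5 was at 18.1 CPM in het 1 and 22.4 CPM in het 2A, at 0 CPM in het 2B, and at 0.0156 CPM or less in the KO replicates. The knockouts held 2 of its counts against 2572 in heterozygotes, a ratio of 1615 with a 95% exact counting interval of 446.6 to 13340. Skint6 was at 3.01 and 3.4 CPM in het 1 and 2A and again at 0 CPM in het 2B, with 413 counts in heterozygotes and 2 in knockouts, a ratio of 259.3 (71.33 to 2148). Family members this alike can exchange reads, so the split between them is uncertain. Neither gene could be tested without library 2A.

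How each library sits was then read from genes called without it. Of 120 genes called without library 2B, 2B was nearer the het mean for 86 (71.7%) and nearer the KO mean for 34, on log2(CPM + 0.5), and it was within the KO range for 12. Library 2A was nearer the het mean for 167 of the 316 genes called without it (52.8%). KO replicates were nearer their own group for 118 of 119 to 271 of 292 such genes. Het replicate 1, held out whole, was nearer the het group for 59.5% of such genes, and het replicate 2 for 66.2%. There only the other het replicate set the het mean. Libraries 2A and 2B were in use in both of these settings, so the shares do not show whether low values are particular to them. The 34 genes were spread unevenly: on chromosome 11 all 6 were nearer the knockout in 2B, Kif18b, Grb7 and Prr15l among them, and on chromosome 4 it was 6 of 9, Skint5 and Skint6 included. On chromosomes 9 and 17 none of 12 and none of 7 were, and on chromosome 5 it was 3 of 25.

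Called genes were unevenly placed along the genome. The share of tested genes that passed was 3.93% on chromosome 17, 3.67% on chromosome 5, 3.09% on chromosome 9, 2.96% on chromosome 1, 2.26% on chromosome 8 and 2.24% on chromosome 10, and 0.287% on chromosome 6 and 0.542% on chromosome 2 at the other end. The 6 with the highest shares held 206 of the 327 called genes on assembled chromosomes (63%) and 33.6% of the tested genes. Because they were picked by that share, their excess over 33.6% was fixed beforehand. Without library 2B, and with otherwise the same libraries, these 6 held 79 of 118 (66.9%), although chromosome 17 then had 7 called genes in place of 37. Chromosome 10, which carries Tle6, had 22 called genes, all of them lower, and without library 2B 5 lower and 1 higher. In the Padi6 line the share per chromosome ran from 1.59% to 4.36%, with chromosome 18 the highest.

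**Figure D3:**
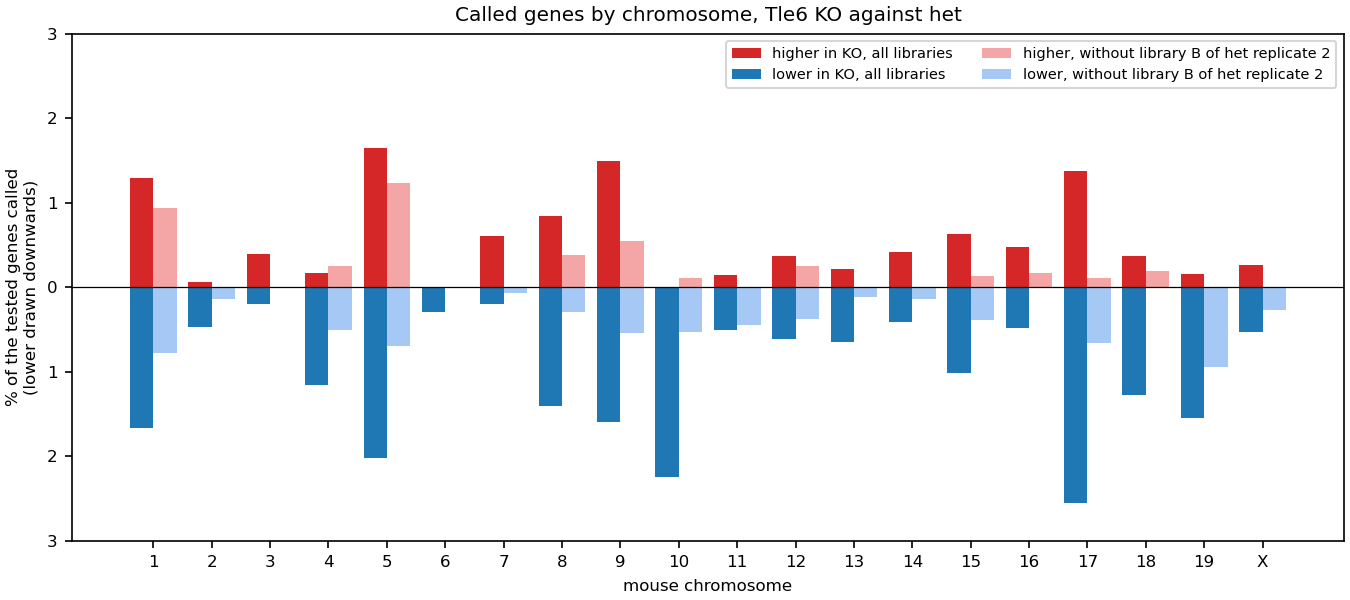
Percent of the tested genes of each chromosome that passed, higher genes drawn upwards and lower genes downwards, with all libraries (dark bars) and without library 2B (pale bars). Chromosomes 1 and 5 keep high shares in both (2.96% and 3.67%, then 1.72% and 1.93%). With all libraries every called gene of chromosome 10 is lower, and without library 2B 5 are lower and 1 is higher.

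Some neighbouring genes were called together, though how many would be if called genes were placed at random was not computed. Taking called genes at most 10 tested genes apart as a run, 168 of the called genes fell into 62 runs, and 8 runs held 4 or more, 50 genes in all. In 7 of those 8 the members moved in both directions. The largest lay on chromosome 5 between Fam47e and Gm33370, where 11 of 32 tested genes passed, 8 higher and 3 lower, 6 of them also without library 2B. It included D5Ertd577e, Gm6205, Gm3106, Gm3259, C87414 and AA792892, related oocyte genes whose reads may be exchanged between copies. It also included Ccng2, a cyclin gene, which fell from 127 to 53.9 CPM. Gm6205 was at 0.0457 CPM in het 1, 0 and 0.0667 CPM in het 2A and 2B, and 10.1 to 13.2 CPM in knockouts. A run on chromosome 1 held 7 of 22 tested genes, 6 of them also called without library 2B. It runs from D630023F18Rik to Erbb4 and includes Kansl1l, which fell by 1.97, and Acadl, a fatty acid oxidation gene, which fell by 1.92 in log2. Chromosome 10 had the 1 run of that size with a single direction, Slc6a15, Tmtc2, Ptprq and Otogl, 4 of 9 tested genes and all lower. Only Tmtc2 of these passed without library 2B.

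Among 52 gene lists, which together held 1758 tested genes, 37 genes passed (2.1%, beside 1.62% of all genes tested), and 32 lists held no called gene (38 without library 2B). The lists without one covered the egg coat (11 tested), secreted factors and gap junctions (10), CDK1 activation and cell cycle (23), the spindle checkpoint (19), maternal mRNA storage (25), mRNA decay (31), DNA methylation and imprint maintenance (20), the proteasome (47), E2 enzymes (34), deubiquitinases (49), tubulins (16), histones (15) and translation factors (64). For the cytosolic ribosomal proteins 0 of 84 passed, with a median of 0.178 that was 0.031 without library 2B. Nuclear-encoded respiratory chain genes gave 0 of 84 with a median of 0.205, and -0.074 without library 2B. The 12 tested mitochondrially encoded genes had a median of 0.092, and none passed.

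**Figure D4:**
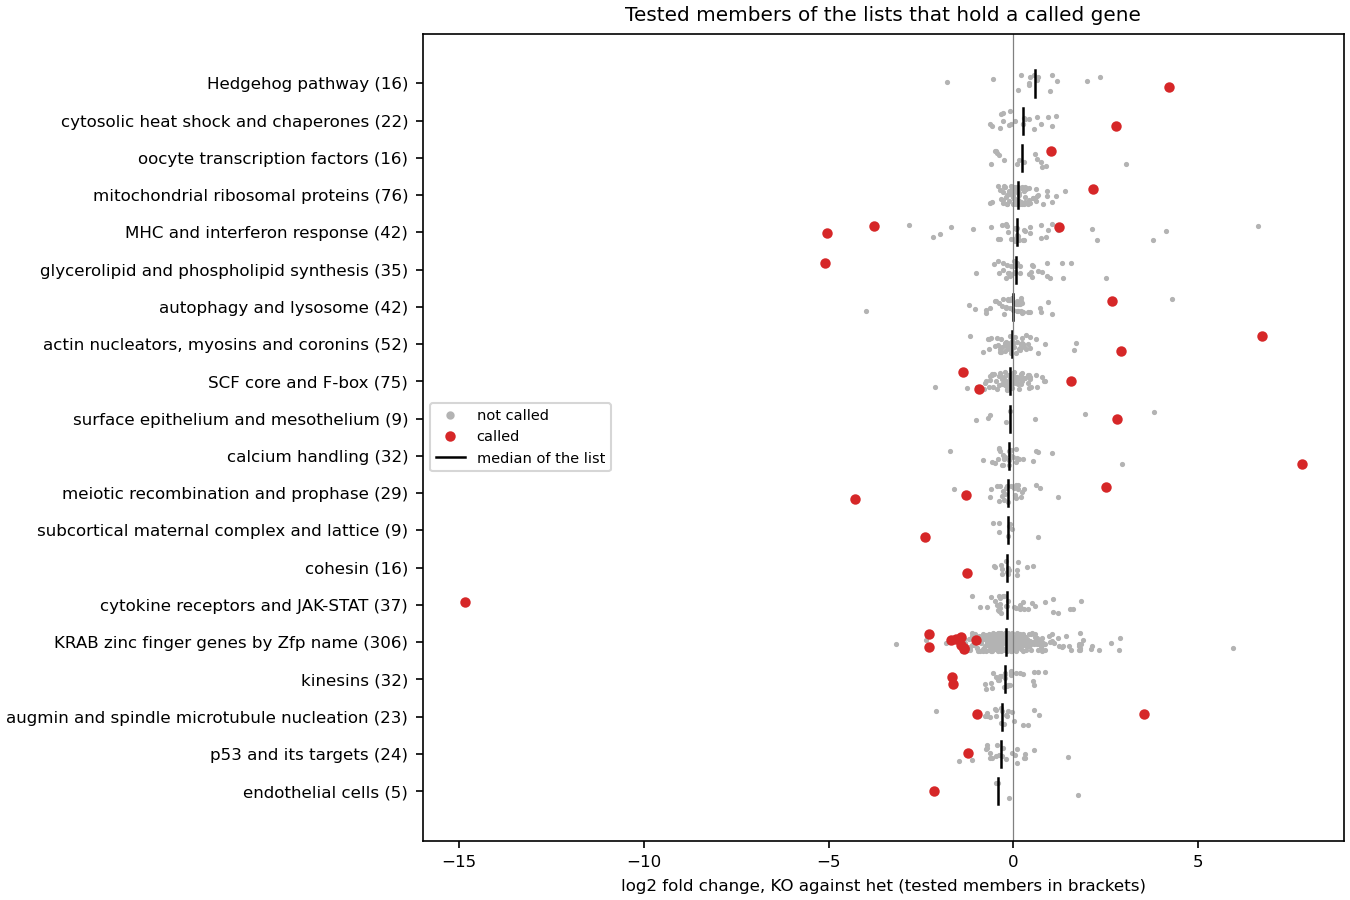
Log2 fold change of every tested member of the 20 lists that hold a called gene, with the number tested in brackets, red points for called genes and a black bar for the list's median. The medians lie between -0.421 and 0.59 while single called genes lie far outside, from Il20ra on the left to Plcl1 on the right.

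The list of zinc finger genes with Zfp names held 306 tested genes, of which 9 fell and 0 rose. That was 2.94%, beside 1.04% lower and 0.587% higher over all genes tested, and the list's median was -0.195. On this list 7 fell and 1 rose without library 2A, and 2 fell without library 2B, Zfp820 and Zfp931. The list does not hold every gene with such a name. Outside it, Zfp385b was called lower with all libraries. Zfp469, also outside it, passed without library 2B, at 0.274, 0.227 and 0.6 CPM in het 1, 2A and 2B and 2.67 to 4.74 CPM in knockouts. Zfp820 fell from 17.1, 43.5 and 19.4 CPM in het 1, 2A and 2B to 3.38 to 6.29 CPM. Zfp69 fell from 54.9, 31.1 and 65.6 CPM to 14.8 to 23.8 CPM, with an edgeR adjusted p of 0.0221 that became 0.134 without library 2B. Zfp992 fell from 6.47, 2.11 and 4.15 CPM to 0.787 to 1.4 CPM. Its edgeR adjusted p was 0.0957 without library 2B, and its estimate of -2.28 became -1.69 without het replicate 1. Most genes of this name carry a KRAB repressor domain, though the name alone does not ensure one, as for Zfp521.

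In the ubiquitin ligase list, F-box genes moved both ways among 75 tested, 1 higher and 2 lower (4.0%, beside 1.62% of all genes tested). Fbxl12, a substrate receptor gene, was steady within each genotype, at 17.1, 20.4 and 14.9 CPM in het 1, 2A and 2B and 46.1 to 53.5 CPM in knockouts. Fbxw25, of the oocyte Fbxw cluster with near-identical copies, fell from 130, 136 and 236 CPM to 52.9 to 71.1 CPM. Fbxo3 fell from 178, 113 and 272 CPM to 89.1 to 111 CPM, and its edgeR adjusted p of 0.0386 became 0.337 without library 2B. Its fall by 0.93 in log2 was among the smallest that passed, since the smallest called change was 0.787. Of the kinesins, 2 of 32 fell (6.25%, beside 1.04% lower over all genes tested). Kif18b, a microtubule-depolymerising kinesin gene, read 13.7 CPM in het 1, 33 CPM in het 2A and 2.63 CPM in het 2B against 3.43 to 6.87 CPM in knockouts. Its estimate of -1.64 was -2.34 without library 2B and -0.83 without library 2A, where its edgeR adjusted p was 0.412. Kif21a, a kinesin gene known for neuronal transport, had an estimate of -1.65 and missed the threshold without library 2B at an edgeR adjusted p of 0.148. Clasp2, a microtubule plus-end gene, fell from 57.7 to 29.2 CPM on average, and its adjusted p of 0.0498 was 0.125 without library 2B.

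Immune genes gave 1 higher and 2 lower of 42 tested (7.14%, beside 1.62% of all genes tested). H2-Aa, an MHC class II chain gene, was at 28.7 CPM in het 1, 3.88 and 25.4 CPM in het 2A and 2B, and 1.15 to 2.14 CPM in knockouts. Its fall by 3.78 had an edgeR adjusted p of 0.00167, and 0.0657 without library 2B. Rsad2, an antiviral radical-SAM enzyme gene, was rare, at 0.446, 0.0908 and 0.967 CPM in het 1, 2A and 2B and at 0.0264 CPM or less in knockouts, and it was not tested without library 2B. Irf3, the interferon regulatory factor gene, rose from 7.01 to 16.4 CPM on average with an edgeR adjusted p of 0.0425, but missed the threshold without either library of het replicate 2, at 0.228 without 2B and 0.0598 without 2A. The summed level of 14 blood and immune markers was 0.761 to 3.06 CPM in het libraries and 1.03 to 2.59 CPM in KO libraries, and 4 of the 14 were at 0 in all 9.

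Flt1, the vascular endothelial growth factor receptor 1 gene and an endothelial marker, fell from 84.8, 33.3 and 70.1 CPM in het 1, 2A and 2B to 11.4 to 20.7 CPM, with an edgeR adjusted p of 0.0156, and 0.0809 without library 2B. The 9 endothelial markers summed to 76.2 to 123 CPM in het libraries and 42.9 to 63 CPM in KO libraries, which do not overlap, and Flt1 made up much of that sum. Pecam1 was at 25.6 and 23.3 CPM on average, Tek at 4.79 to 10.3 CPM and Kdr at 3.05 to 6.88 CPM over the 9 libraries, and Tie1 reached 2.61 CPM. The defining endothelial genes Cdh5, Cldn5 and Emcn were at or below 0.16 CPM in every library, as was Egfl7. Theca and stroma markers, 12 genes, summed to 8.22 to 14.3 CPM against 4.42 to 6.66 CPM, also without overlap. Postn (1.79 to 8.35 CPM over the 9 libraries), Pdgfra (0.498 to 3.48), Ptch1 (0.114 to 2.31) and Dcn (0.176 to 1.69) held most of that sum, while Cyp17a1 was at or below 0.0792 CPM and Insl3 at 0. The part of such cells in the results was not tested. Granulosa and cumulus markers summed to 90.6 to 139 CPM against 106 to 135 CPM. In RNA pooled from 15 oocytes, fewer cells of a type and less RNA per cell cannot be told apart.

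A few lists held a single called gene. Clcn7, a lysosomal chloride-proton exchanger gene, was the 1 of 42 autophagy and lysosome genes, at 1.63, 3.93 and 0.684 CPM in het 1, 2A and 2B and 9.24 to 14.7 CPM in knockouts. Its estimate was 2.68, and 2.07 with an edgeR adjusted p of 0.0698 without library 2B, or 3.31 without library 2A. Mrpl52, of 76 mitochondrial ribosomal protein genes, rose from 2.15 to 9.52 CPM on average, and its edgeR adjusted p of 0.0294 was 0.126 without library 2B. Gtf2a1l, a germ cell subunit of transcription factor IIA, rose from 57.2, 65.4 and 66.4 CPM to 104 to 147 CPM. Its adjusted p of 0.0438 was 0.0957 without library 2B and 0.0598 without library 2A. Ccng2 was the 1 called gene of 24 tested on a list named for p53 and its targets, and its link to p53 was not tested. The edgeR adjusted p of Ccng2 was 0.0399, and 0.111 without library 2B. Hedgehog genes other than Stk36 did not pass, although 14 of 16 estimates were positive, with a median of 0.59. Sufu, a repressor gene of that pathway, had 69.6 CPM in heterozygotes and 110 CPM in knockouts, and Smo, its membrane transducer gene, 0.1 and 0.157 CPM.

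Of the 53 named genes that passed, 23 passed again whichever library of het replicate 2 or whichever replicate was left out, wherever the smaller set could test them. They were Stk36, Plcl1, D5Ertd577e, Gm6205, Defb41, Coro2b, Haus8, Upk3b, Hspa1b and Uba6 among the higher genes, and Tle6, Gpat3, Il20ra, Skint5, Skint6, Meiob, Sept3, Sfxn4, Cfap58, Trim15, Slc16a12, Ppp6r2 and Tmtc2 among the lower. Of these, Il20ra, Skint5 and Skint6 could not be tested without library 2A. In het library 2B, which then stood for het replicate 2, they were at 0.0333, 0 and 0 CPM. Leaving out het replicate 1 ended 23 of the 53 calls and leaving out het replicate 2 ended 20, and 5 to 13 calls ended when 1 KO replicate was left out. Past the threshold in all other settings, Myo10, Rgl2 and AC149090.1 missed it only without het replicate 1, and Fbxl12, Zfp820 and Rbm44 only without het replicate 2. Smc1b, Rsad2, Mrpl52, Ccng2, Clasp2, Fbxo3, Kif18b, Kif21a, Zfp69, Zfp992, Irf3 and Gtf2a1l each missed the threshold in 5 or more of these up to 8 settings.

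The Padi6 line, whose knockouts lack another lattice gene, served only to see whether these changes were shared. Whether any change goes with the loss of the lattices was not tested. Of the 329 genes, 288 were tested in that line, where 440 of 18228 genes passed (2.41%), and 19 passed in both lines. Only Smc1b, Dclk3 and Lrrtm3 moved in the same direction, and 16 moved in opposite directions, among them Haus8, Rad51d, H2-Aa, Erbb3, Dusp6 and Sox6. Without library 2B, only Haus8, Grb7, Rnf144a, Zfp931 and Lrrtm3 of these 19 still passed in the Tle6 line. Over the 288 genes the median absolute log2 change was 1.972 in the Tle6 line and 0.264 in the Padi6 line, a line the choice of genes did not use. The difference between the 2 lines' changes, tested in one fit over all 12 replicates, passed for 924 of 21392 genes (4.32%). Stk36 differed by 4.30, Plcl1 by 8.31, Gpat3 by -5.46 and Meiob by -4.31 in log2, each past the threshold, and each had a change between -0.57 and 0.30 in the Padi6 line. Haus8 rose by 3.52 in the Tle6 line and fell by 1.82 in the Padi6 line. For Hspa1b, Smc1b, Irf3, Gtf2a1l and Zbtb7c the difference did not pass. Il20ra, Extl1 and Gm32687 were too rare in the Padi6 line to be tested there, at or below 0.0202, 0.382 and 0.0281 CPM in its replicates, so whether their change is shared cannot be read. Line and strain background cannot be told apart in this comparison.

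**Figure D5:**
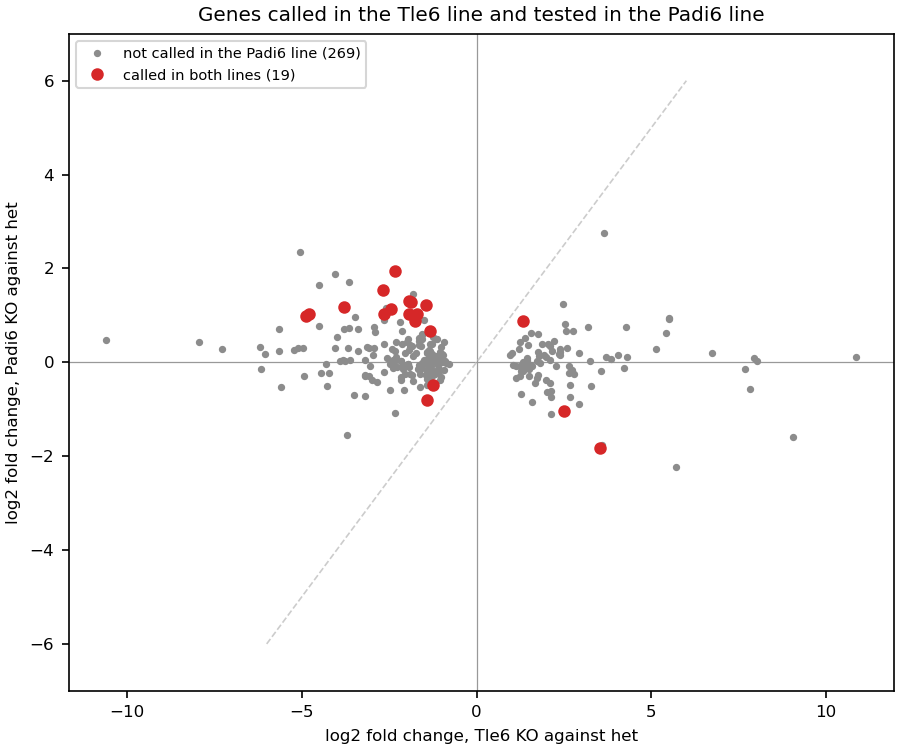
Log2 fold change in the Padi6 line against that in the Tle6 line for the 288 genes called in the Tle6 line and tested in both; the dashed line marks equal change. The points lie along the horizontal axis, with a median absolute change of 0.264 in the Padi6 line, and of the 19 red points called in both lines 16 lie in the quadrants of opposite direction.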

How the data were processed

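The authors deposited whole-number counts of reads per gene for each library, not normalised, per the files themselves. The submitters' processing notes name bcl2fastq 2.20.0.422, cutadapt 2.8, STAR 2.7.8a, HTSeq 2.0.2 and mm39. Neither the annotation release nor how HTSeq treated strand is stated in these sources, so overlapping, antisense and near-identical genes are uncertain. Spike-in rows and rows that name no gene stayed out of library sizes and tests; reads outside genes were 5.39 to 7.29% of a Tle6-line table, ambiguous reads 3.85 to 4.2% and reads with several alignments 12.09 to 14.51%. Of 53700 identifiers, 52147 matched a symbol in GENCODE M21, which is on GRCm38 and served for names, gene types and gene order only. Titles carry WT in brackets for libraries whose genotype reads heterozygote; groups follow the genotype.

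Counts of technical libraries were added within a replicate. A two-sided quasi-likelihood test in edgeR 4.0.16 under R 4.3.3 (robust glmQLFit, glmQLFTest, TMM) was run on genes kept by filterByExpr. Adjustment was by Benjamini-Hochberg over the whole table, and a gene with an adjusted p under 0.05 is called. Each line was fitted by itself; the difference between the lines' changes was an interaction contrast over 12 replicates. Common biological variation (coefficient) was 0.361 in the Tle6 line, so replicate spread, not depth, limits most values. CPM of a replicate with 2 libraries are its added counts over its added TMM-scaled sizes. Where a group held at most 3 counts of a gene, the ratio has an exact binomial interval, for counting error only. The test was tried on simulated counts.

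Named are the 9 complex and lattice genes and the 15 higher and 15 lower genes of largest fold (called with and without library 2B, mean of the higher group 10 CPM or more, no overlap, protein-coding, not Gm or Rik). Also named are up to 3 called genes per list, the called genes among 20 on each side of Tle6 and the 10 of smallest p in the difference between lines. One of these genes is counted but not reported here. Members, lists and tests were chosen with earlier results of these data known. A script also compared alternatives with RLE and upper quartile scaling, no filter or a 5 CPM minimum, DESeq2 1.42.0, a spread shared by both lines, a replicate block, and libraries or replicates left out.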

Additional observations from a re-analysis of the deposited data

Results flagged for a closer look

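In 5 of the 61 named genes 1 KO replicate lay far from the other 3, by a gap test on 4 values that chance passes in about 1 of 20 groups. Gpat3 was at 15 CPM in KO replicate 1 and at 2.82 to 3.72 CPM in the others, and Cfap58 at 9.16 CPM in KO replicate 1 against 4.82 to 5.5 CPM. For Il20ra in KO replicate 3 (0.0132 CPM), Skint6 in KO replicate 2 (0.0311 CPM) and Gm32687 in KO replicate 1 (0.0219 CPM) the others were at 0, and the value rests on 1 or 2 counts.

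For 46 named genes the change in the Tle6 line differed from that in the Padi6 line, by the interaction contrast in edgeR with Benjamini-Hochberg adjustment, given here as the Tle6 change minus the Padi6 change in log2. Genes above 0 were Gm6205 by 7.96, Stk36 by 4.30, D5Ertd577e by 7.75, Defb41 by 10.67, Rad51d by 3.48, Haus8 by 5.29, Coro2b by 6.50, Plcl1 by 8.31, Uba6 by 2.13, Clcn7 by 3.10, Upk3b by 2.99, Fbxl12 by 1.57, Myo10 by 3.76, AC149090.1 by 1.86, Slc30a2 by 1.70, Inpp4a by 1.75, Mrpl52 by 2.83 and Padi6 by 6.02. Padi6 stands among them because it fell in its own line. Genes below 0 were Skint5 by -11.09, Meiob by -4.31, Sept3 by -2.93, Tle6 by -2.33, H2-Aa by -5.02, Sfxn4 by -3.01, Cfap58 by -3.51, Trim15 by -3.17, Skint6 by -8.40, Slc16a12 by -3.11, Ppp6r2 by -2.0, Gpat3 by -5.46, Tmtc2 by -2.40 and Zfp820 by -2.77. Also below 0 were 1190007I07Rik by -4.14, Rgl2 by -2.38, Flt1 by -2.59, Rbm44 by -2.23, Fbxw25 by -1.66, Zfp69 by -1.68, Rsad2 by -7.40, Zfp992 by -2.23, Fbxo3 by -1.41, Ccng2 by -1.82, Kif18b by -1.57, Kif21a by -2.22 and Clasp2 by -1.03. Adjusted p ran from 7.18e-08 for Skint5 to 0.0381 for AC149090.1. A value from a gene near 0 counts in one group, such as Defb41 or Skint5, depends on the prior count.

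Spike-in transcripts, which no comparison used, had 5 to 45 counts in each Tle6-line library, with 45 in het library 1A, beside 40 to 13772 in the Padi6 line.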

How the results depend on the processing

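With 329 genes called in the Tle6 line, RLE scaling gave 345, upper quartile scaling 327, a mean of at least 5 CPM 221 and no library 2A 316. The count moved by more than 1.5 times with no filter on low counts (1447), DESeq2 (1732, of them 846 higher and 886 lower), no library 2B (120), libraries 2A and 2B as separate replicates, an alternative added after the data were seen (179), and a spread shared by both lines (2061). It was 119 to 292 when 1 replicate was left out. For the 924 genes that differed between lines, the counts were 2078 with no filter, 567 at a mean of at least 5 CPM, 2051 by DESeq2, 382 without library 2B and 339 with 2A and 2B apart, and 406 to 1465 when 1 replicate was left out. With the replicate number as a block, 57 genes passed in the Tle6 line (53 of them among the 329) and 400 in the difference. The labels do not say that equal numbers mark a shared animal or day, and only 2 numbers are shared; deviations of het 1 correlated with KO 1 at 0.14 and with KO 4 at 0.322, and those of het 2 with KO 2 at 0.238 and with KO 3 at 0.212. None of the 53 named genes that were called changed direction in these alternatives. Of the 53 named calls, 29 were lost under the block, 15 without library 2B, 6 without library 2A, 13 with 2A and 2B as separate replicates, 1 with no filter and 1 with upper quartile scaling. The cause was not tested. The 51 higher and 75 lower genes below 1 CPM in a group rest on few counts there.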

Other observations

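Receptor tyrosine kinases of the ErbB and Eph families recurred among the called genes; these families were looked at after their values were seen, so counts and values only are given. Of 3 tested ErbB receptor genes 2 fell (66.7%, beside 1.04% lower over all genes tested). Erbb4 was at 6.24 CPM in het 1, 3.77 and 6.32 CPM in het 2A and 2B, and 0.0396 to 0.393 CPM in knockouts, and it also passed without library 2B. Erbb3 was at 16, 5.97 and 28.3 CPM in het 1, 2A and 2B and 4.2 to 5.07 CPM in knockouts, and did not pass without library 2B (edgeR adjusted p of 0.178). Of 12 Eph receptor genes, Epha3, Epha5 and Epha7 fell and Ephb4 rose (33.3%, beside 1.62% of all genes tested). None of them passed without library 2B. Grb7, an adaptor gene for such receptors, was at 8.56 and 9.08 CPM in het 1 and 2A, 1.58 CPM in het 2B and 0.488 to 1.81 CPM in knockouts, and did not pass without library 2A.

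Some RNAs without a known function were absent from one genotype. Gm15668, a long intergenic RNA on chromosome 1, had 0 counts in heterozygotes and 1410 in knockouts, at least 374-fold higher with a floor of 3 counts over the group. Gm18701, a processed pseudogene on the same chromosome, had 903 counts in heterozygotes and 0 in knockouts, at least 378-fold lower, and was even across het 1, 2A and 2B at 4.75, 4.93 and 4.5 CPM. Olfactory receptor genes, also looked at after their values were seen, gave 4 higher and 0 lower of 108 tested. That was 3.7%, beside 0.587% higher over all genes tested, and without library 2B 1 was higher. Olfr206 led them, at 0.295 to 0.634 CPM in het libraries and 4.67 to 7.1 CPM in knockouts. Arid5b, a chromatin-binding protein gene on chromosome 10, fell from 146, 106 and 161 CPM in het 1, 2A and 2B to 14.6, 1.43, 1.04 and 2.41 CPM, and its edgeR adjusted p of 0.0399 was 0.0769 without library 2B.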
